A study of Mus musculus with 4 samples.

Results

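Germline genes that somatic cells normally keep silent were examined in mouse frontonasal prominence (FNP), from which the nose and snout grow. The group held 9 genes, Dazl, Ddx4, Mael, Sycp1, Sycp3, Tdrd1, Slc25a31, Tex101 and Hormad1, taken by name from a table of 33708 autosomal genes, and each matched 1 row. The libraries came from 4 FVB/NJ mouse embryos dissected at E10.5 with 29 somites. The WT group was 2 Smchd1+/+ embryos, labelled 1 female and 1 male. The MD43 group was 2 embryos of genotype Smchd1MommeD43/MommeD43, both labelled male, which carry an ENU-induced missense allele of the chromatin silencing gene Smchd1. Replicate 2 of each genotype came from the same mother, and the other embryos from other mothers. A supplementary record of the study names WT replicate 2 as female, in which case sex and genotype cannot be told apart. The comparison asked whether germline genes were derepressed in the mutant tissue.

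In somatic cells the CpG-rich promoters of many germline genes gain DNA methylation around implantation and stay silent. The methyltransferases DNMT3A and DNMT3B add the mark, and DNMT1 with UHRF1 copies it through cell division. A variant Polycomb complex that holds E2F6, MGA, MAX, L3MBTL2 and PCGF6 marks many of the same promoters, and MGA with MAX binds the E-box, the DNA word CACGTG. When methylation is lost in somatic cells, genes of this kind can become transcribed, so their transcripts serve as a readout of the silencing. DNA methylation itself was not measured in these libraries.

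The promoters are shown because they are where this silencing acts. All 9 genes had an entry in the RefSeq promoter table (GRCm38.p6), and the 250 bases before the start site nearest the annotated 5′ end were read. For Tex101 that start lay 4625 bases from the GENCODE gene end. The 9 windows held 11 to 31 CpG dinucleotides, with a median of 18, against a median of 6 over 32851 promoters. The median was also 18 for 4 matched marker genes of the frontonasal tissue, and 16 for 10 genes of the silencing machinery. A high CpG count was thus not particular to the 9 genes. The E-box was found in 7 of the 9 windows, in all but those of Dazl and Tex101. Over all promoters 6.02% held it, and among the 11685 promoters with at least 11 CpG the share was 9.61%. The E-box reads the same on both strands. An E2F word, TCCCGC on either strand, was found in 4 of the 9 (Ddx4, Mael, Sycp3 and Hormad1), against 16.9% of all promoters and 38.6% of those with at least 11 CpG. A match is only a match of letters and does not show that a factor was bound.

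The windows of the 3 members with the most reads (Sycp1, Sycp3 and Tdrd1) and of 2 members without a read (Mael and Hormad1) are printed 5′ to 3′, ending at the base before the start site, with each E-box in capitals. They lie at chr3:102936101-102936350 (minus strand), chr10:88459337-88459586 (plus strand), chr19:56825959-56826208 (plus strand), chr1:166238745-166238994 (minus strand) and chr3:95559427-95559676 (plus strand), in this order.
Sycp1: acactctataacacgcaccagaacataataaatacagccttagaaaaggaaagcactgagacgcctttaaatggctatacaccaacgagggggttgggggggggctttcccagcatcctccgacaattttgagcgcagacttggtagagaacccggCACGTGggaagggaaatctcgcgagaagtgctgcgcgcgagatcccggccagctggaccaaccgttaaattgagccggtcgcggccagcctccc
Sycp3: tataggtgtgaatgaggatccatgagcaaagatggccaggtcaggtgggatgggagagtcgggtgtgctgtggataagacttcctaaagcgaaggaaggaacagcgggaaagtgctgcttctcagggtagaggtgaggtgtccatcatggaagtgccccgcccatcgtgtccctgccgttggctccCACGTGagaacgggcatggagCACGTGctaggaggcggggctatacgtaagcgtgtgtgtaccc
Tdrd1: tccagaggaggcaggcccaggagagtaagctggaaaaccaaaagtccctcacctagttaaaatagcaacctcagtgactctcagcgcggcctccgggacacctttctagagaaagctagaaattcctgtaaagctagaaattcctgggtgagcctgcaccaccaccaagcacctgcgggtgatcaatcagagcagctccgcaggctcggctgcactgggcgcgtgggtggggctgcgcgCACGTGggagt
Mael: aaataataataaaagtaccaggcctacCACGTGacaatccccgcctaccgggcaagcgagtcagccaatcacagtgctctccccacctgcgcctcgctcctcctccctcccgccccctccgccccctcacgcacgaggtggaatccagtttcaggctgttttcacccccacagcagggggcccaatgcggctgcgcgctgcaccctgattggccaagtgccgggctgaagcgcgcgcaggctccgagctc
Hormad1: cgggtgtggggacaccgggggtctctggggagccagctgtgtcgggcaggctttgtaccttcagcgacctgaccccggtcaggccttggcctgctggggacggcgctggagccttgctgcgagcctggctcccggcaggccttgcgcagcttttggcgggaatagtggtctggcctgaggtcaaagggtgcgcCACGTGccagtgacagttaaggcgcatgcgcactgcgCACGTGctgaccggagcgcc
The E-box began 94 bases before the start in Sycp1, 64 and 43 in Sycp3, 11 in Tdrd1, 223 in Mael, and 57 and 20 in Hormad1. Members with reads and members without a read thus both carried the word. The plot of CpG content shows where the 9 windows lie among all promoters.

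**Figure D1:**
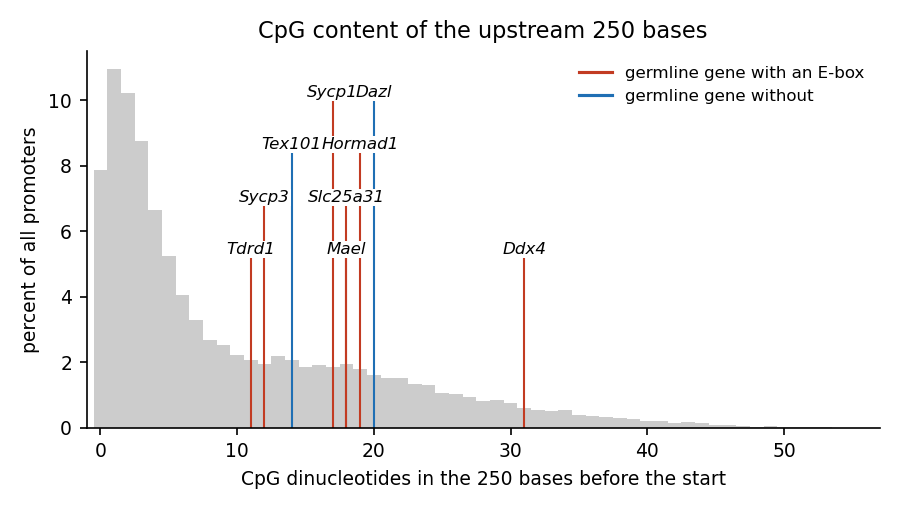
Number of CpG dinucleotides in the 250 bases before the start site (x axis) for all 32851 promoters (grey bars, percent of promoters on the y axis) and for the 9 germline genes (coloured lines, whose height has no meaning). The genes lie between 11 CpG (Tdrd1) and 31 CpG (Ddx4), all above the median of 6, and 7 of them hold an E-box (red).

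For each gene the table gave 1 log2 RPKM value per genotype (reads per kb of transcript, scaled to library size), merged by the authors over the 2 libraries of that genotype. It holds no spread between embryos, so no difference between genotypes was tested. The steps between low values gave back, for each genotype, the number obtained by multiplying the reads of its 2 libraries, and reads given here are the square root of that product, a geometric mean. A library without reads enters as 0.9. The implied depth was 16055882 reads in WT and 22328791 reads in MD43, a ratio of 1.39. Reads are not scaled, so equal levels give more reads in MD43, while RPKM and log2 differences are at equal depth. The 2 libraries of a genotype also differed in counts. Where a product was that of 2 primes of at least 50, it fixed both counts. There the median ratio of the larger to the smaller count was 1.44 in WT (247 genes) and 1.51 in MD43 (225 genes). This ratio is at least 1 by its definition and rises with counting error, so how far the depths differed is not shown. The error given with a log2 difference (MD43 minus WT) is the least that counting of reads can give, as a standard error, and leaves out variation between embryos. All 8 frontonasal markers were read, from Pax3 at 3.76 RPKM to Msx1 at 38.8 RPKM in WT. In bulk tissue, fewer cells of a type and less RNA per cell cannot be told apart.

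Of the 9 germline genes, none was seen to be derepressed by 2-fold or more, although only some had enough reads to judge. Of the 9 members, 3 (Mael, Tex101 and Hormad1) had no read in any of the 4 libraries, 3 (Dazl, Ddx4 and Slc25a31) had a few reads in both genotypes, and 3 (Sycp1, Sycp3 and Tdrd1) had a mean of at least 10 reads at equal depth. All 6 members that had a read in MD43 also had one in WT. Of the 3 that passed the read filter, 0 were at least 2-fold higher and 0 at least 2-fold lower in MD43. Over the 15007 genes that passed the same filter, 0.8% were at least 2-fold higher and 2.17% at least 2-fold lower, so a count of 0 among 3 members lies at the background.

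**Figure D2:**
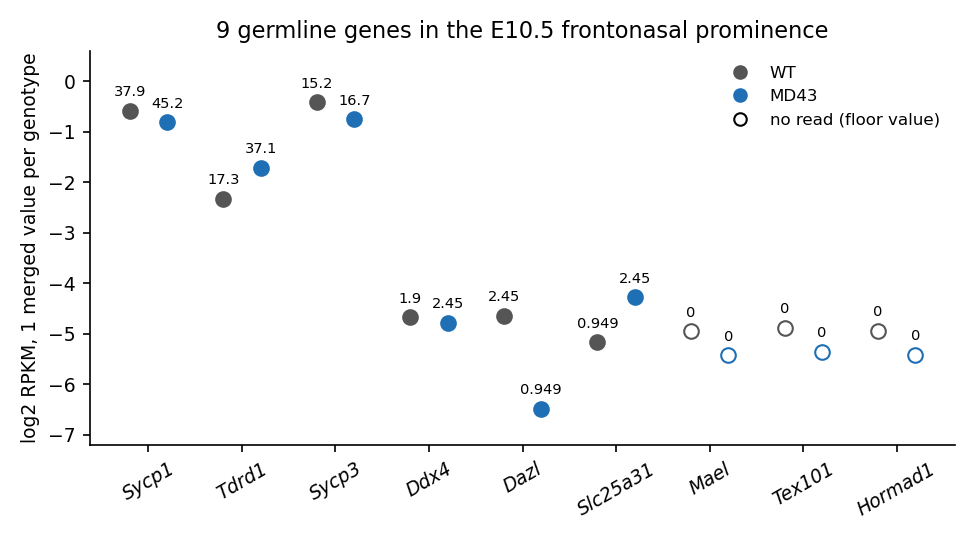
Log2 RPKM (y axis) of the 9 germline genes in WT (grey) and MD43 (blue), 1 value per genotype, with the recovered reads (geometric mean of 2 libraries) printed above each point. Open points are genes without a read, whose value is set by depth and length and is lower in the deeper MD43 libraries. Sycp1, Sycp3 and Tdrd1 stand above -2.5 and the other 6 genes below -4.

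The first group of members acts on meiotic chromosomes. Sycp1 (ENSMUSG00000027855, chromosome 3, 102818499 to 102936100, minus strand) encodes the transverse filament that zips paired chromosomes together in the synaptonemal complex. With 37.9 reads in WT against 45.2 in MD43, its level was 0.665 and 0.570 RPKM, and it had the most reads of the 9 genes. Its log2 difference was -0.22 ± 0.22, no larger than its counting error. The MD43 product of 2046 splits into 33 and 62 or 31 and 66 reads if the libraries differ by no more than 4-fold, and the WT product of 1440 allows 5 such pairs, from 36 and 40 to 20 and 72. Its level lay at the 12.1 percentile of protein-coding genes that passed the filter in WT and at the 11.6 percentile in MD43, so it was low but above the floor. The next gene upstream on the same strand, Nr1h5, ended 3558 bases away and had 1086 and 1239 reads, a difference of -0.29 ± 0.04.

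Sycp3 (ENSMUSG00000020059, chromosome 10, 88459569 to 88473236, plus strand) encodes a protein of the chromosome axis and lateral element. Its level was 0.747 RPKM in WT (15.2 reads) and 0.593 RPKM in MD43 (16.7 reads), a log2 difference of -0.33 ± 0.36, again within its counting error. Its read pairs were 10 and 23 in WT, and 14 and 20 or 10 and 28 in MD43, within a 4-fold limit. Of its 1264 exon bases, 660 are also exon of Chpt1, a phospholipid synthesis gene on the opposite strand. Chpt1 was far more abundant (282 reads in WT, 374 in MD43), and its level would place 22.4 and 29.7 reads on the shared bases if reads were spread evenly. Both numbers are more than the 15.2 and 16.7 reads that Sycp3 had in all. The paper's methods name either a stranded mRNA kit or another TruSeq kit, without saying which was used for FNP. Whether the authors counted by strand is not given in the sources used here, and the part of Chpt1 in the Sycp3 value was not tested. Sycp3 is therefore uncertain as a germline transcript.

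Hormad1 (ENSMUSG00000028109, chromosome 3, 95559677 to 95587671, plus strand) encodes an axis protein that marks unpaired meiotic chromosomes. It had 0 reads in all 4 libraries. A count of 0 allows up to 3 reads a library, which is 0.108 RPKM in WT and 0.0777 RPKM in MD43 at the implied depth and covers counting error only.

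A further group belongs to the germ granule and the piRNA pathway, which uses small RNAs to silence transposons. Tdrd1 (ENSMUSG00000025081, chromosome 19, 56826209 to 56870012, plus strand) encodes a Tudor protein that binds PIWI proteins. Its level was 0.198 RPKM in WT (17.3 reads) and 0.305 RPKM in MD43 (37.1 reads). The log2 difference was 0.62 ± 0.30, or 1.54-fold higher in MD43, the largest of the 3 members that passed the filter. This was 2.10 times its counting error. Over the 15007 genes, 25.8% were higher by more than 2 counting errors and 24% lower, so a difference past counting error was common. The counting error falls as reads rise, and genes with as few reads as Tdrd1 were not compared apart. By size, 3% of the 15007 genes were at least 1.5-fold higher. Within a 4-fold limit the MD43 product of 1378 gives 1 pair, 26 and 53 reads, while that of WT (300) gives 15 and 20, 12 and 25, or 10 and 30. Which embryo each count belongs to cannot be told, so whether the genotypes overlap at equal depth is unknown.

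The neighbours of Tdrd1 were read as well. Vwa2, a gene for an extracellular matrix protein that starts 4237 bases downstream on the same strand, was itself higher in MD43, with 324 reads against 113 and a log2 difference of 1.04 ± 0.11. Ccdc186, 4019 bases upstream on the opposite strand, had 598 and 921 reads, a difference of 0.15 ± 0.05. Tdrd1 shared no exon base with either gene. The part of reads running between Tdrd1 and Vwa2 was not tested.

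Ddx4 (ENSMUSG00000021758, chromosome 13, 112598333 to 112652475, minus strand) encodes the germ cell RNA helicase known as Vasa. It had 1.90 reads in WT, which means 4 reads in 1 library and 0 in the other. In MD43 it had 2.45 reads, from 1 and 6 or 2 and 3. Both values were below the 3 reads that a count of 0 allows, so no fold is given. Its neighbour Il31ra, 3973 bases away on the same strand, had 0 reads in WT and a geometric mean of 1 read in MD43. Mael (ENSMUSG00000040629, chromosome 1, 166201201 to 166238747, minus strand), which encodes a nuage protein needed for transposon silencing, had 0 reads in all 4 libraries, with limits of 0.108 RPKM in WT and 0.0775 RPKM in MD43.

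The other 3 members have separate roles. Dazl (ENSMUSG00000010592, chromosome 17, 50279395 to 50293636, minus strand) encodes an RNA-binding protein that promotes translation in germ cells. It had 2.45 reads in WT, from 1 and 6 or 2 and 3, and in MD43 it had 1 read in 1 library and 0 in the other. Its listed log2 RPKM was -4.65 and -6.49, but with both genotypes under the 3 reads that a count of 0 allows no fold is given, and a difference was not detectable at this depth. Slc25a31 (ENSMUSG00000069041, chromosome 3, 40708855 to 40726096, plus strand), the ADP/ATP carrier of germ cell mitochondria, went the other way. It had 1 read in 1 WT library and 0 in the other, against 1 and 6 or 2 and 3 reads in MD43, and again no fold is given. Intu, 4081 bases upstream on the same strand, had 642 and 762 reads, a difference of -0.23 ± 0.05. Tex101 (ENSMUSG00000062773, chromosome 7, 24668007 to 24676675, minus strand), a germ cell surface glycoprotein, had 0 reads in all 4 libraries, with limits of 0.113 RPKM in WT and 0.0811 RPKM in MD43.

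Set side by side, the levels per length fell into 2 tiers. Sycp3, Sycp1 and Tdrd1 lay between 0.198 and 0.747 RPKM in both genotypes, and no other member was listed above 0.0516 RPKM. That listed value is not a ceiling, since a count of 0 allows 0.113 RPKM for Tex101 in WT. Within the upper tier the order was Sycp3, Sycp1 and Tdrd1 in both genotypes. The place of Sycp3 is uncertain, since the part of Chpt1 in its value was not tested. Sycp3 and Sycp1 differed by 0.17 ± 0.31 on the log2 scale in WT and by 0.06 ± 0.29 in MD43, less than the counting error. Sycp1 and Tdrd1 differed by 1.75 ± 0.30 in WT and by 0.90 ± 0.23 in MD43. The 6 genes of the lower tier were all at or under the floor of 3 reads, and no order is given among them. The reads of all 9 members at equal depth summed to 89.3 in WT and 89.0 in MD43, a log2 difference of -0.01 ± 0.15. Sycp1, Sycp3 and Tdrd1 held 93.0% of this sum in WT and 94.4% in MD43. The difference was -0.26 without Tdrd1 and 0.067 without Sycp3. The sum was level, with Tdrd1 listed higher and Sycp1 and Sycp3 listed lower in MD43.

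The other genes of the germline programme were looked at in the same way. Of 64 other germline genes in 6 lists, reads could be recovered for 63, and 22 of these (34.9%) had no read in any library, against 3 of the 9 members and 23.1% of the 20524 protein-coding genes. A further 28 had reads below the filter and 13 passed it. Of the 13, 0 were at least 2-fold higher and 0 at least 2-fold lower in MD43. Their median log2 difference was -0.25, with 11 lower and 2 higher, against a median of 0.0028 over all 15007 genes, of which 49.5% were lower. These lists were chosen with earlier results of the data known.

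Among genes of the synaptonemal complex, axis and meiotic cohesin, 2 of 10 had no read. Syce2, a central element protein, had 725 reads in WT and 824 in MD43 (18.8 RPKM in MD43), a difference of -0.29 ± 0.05. Stag3, a meiotic cohesin subunit, had 111 and 130 reads, a difference of -0.25 ± 0.13. Hormad2, the partner of Hormad1, had 0 reads in both WT libraries and 8 in MD43, from 8 and 8 or 4 and 16 within a 4-fold limit. With WT set to 3 reads a library it was at least 1.92-fold higher in MD43, at a mean below the filter. Rec8 (1.41 and 2.00 reads) and Sycp2 (1.34 and 1.90 reads) were near the floor in both genotypes.

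Among 15 piRNA pathway genes with recovered reads, 5 had none. Tdrkh, a Tudor protein of mitochondria, was the most read, with 727 reads against 763 in MD43 and a difference of -0.41 ± 0.05. It shares 2255 exon bases with Oaz3 on the opposite strand, whose level would place 79.6 reads in WT and 110 in MD43 there. Rnf17, a Tudor protein of the germ granule, had 35.3 and 41.6 reads and a difference of -0.24 ± 0.23. Pld6, a mitochondrial protein that helps to make piRNA ends, had 28.1 and 64.3 reads, a difference of 0.72 ± 0.23, the largest upward difference of the 13 genes. Below the filter, the helicase gene Tdrd9 had 9.17 reads against 5.10 in MD43, and the PIWI gene Piwil2 had 3.46 against 9.80. Of the Tudor genes that passed the filter, Tdrkh and Rnf17 were listed lower in MD43 and Tdrd1 higher.

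Among 15 genes of meiotic entry and recombination, 1 had no read and 6 passed the filter. Tex15 had 289 reads in WT and 347 in MD43, a difference of -0.21 ± 0.08. Msh5, a meiotic mismatch repair homologue, had 76.7 and 82.1 reads (-0.38 ± 0.16), and Prdm9, which marks recombination hotspots, had 54.9 and 57.0 reads (-0.42 ± 0.19). Brdt, a testis bromodomain protein, had 20.8 and 27.8 reads (-0.05 ± 0.30), and the strand exchange enzyme gene Dmc1 had 14.5 and 12.2 reads (-0.72 ± 0.40). All 5 were listed lower in MD43, Brdt by less than its counting error. The sixth, Mei4, was named after its value was seen because it alone was higher, with 8.49 and 18.5 reads and a difference of 0.65 ± 0.42.

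**Figure D3:**
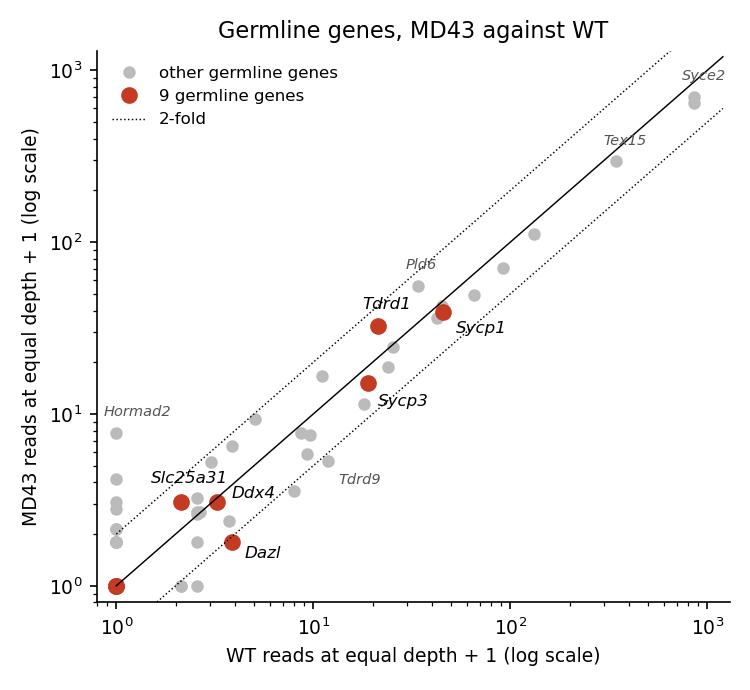
Reads at equal depth plus 1 in WT (x axis) and MD43 (y axis), both on log scales, for the 9 germline genes (red) and 63 other germline genes (grey), with the line of equality and the 2-fold lines. Most genes with over 10 reads lie just below equality, Tdrd1, Mei4 and Pld6 lie above it, and no gene with a mean of at least 10 reads lies past a 2-fold line.

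Markers of primordial germ cells were checked because stray germ cells would also carry germline transcripts. Of 5 markers, Dppa3 was at 0 in all 4 libraries, and Pou5f1 had 0 reads in WT and 1 read in 1 MD43 library. Prdm14 had 0 reads in WT, and 5 reads in 1 MD43 library with 0 in the other. Nanos3 had 19.3 and 20.9 reads, and Dnd1 37.5 and 49.2, but Dnd1 shares 140 exon bases with Wdr55 on the opposite strand, whose level would place 57.3 reads in WT and 89.9 in MD43 there, more than Dnd1 had in all. The 5 markers summed to 67.0 reads at equal depth in WT and 62.0 in MD43, of which Dnd1 held 44.2 and 41.7. Their part in the values of the 9 genes was not tested.

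The silencing machinery was present in both genotypes, with all 10 listed genes above the filter, 7 higher and 3 lower in MD43 and a median of 0.13. Over all 15007 genes 49.5% were lower, with a median of 0.0028, and 25.8% were higher by more than 2 counting errors. The errors below leave out variation between embryos, and no difference was tested. Of the 5 with the most reads, the maintenance genes Uhrf1 (104 RPKM in WT, a difference of 0.18 ± 0.02) and Dnmt1 (53.5 RPKM, 0.19 ± 0.02) were the most abundant per length. Dnmt3a differed by 0.22 ± 0.02, the histone H3K9 methyltransferase gene Setdb1 by 0.05 ± 0.03 and Mga by -0.09 ± 0.03. The 2 largest differences of the list, picked out after their values were seen, were L3mbtl2 at 0.52 ± 0.04 (1.43-fold) and Dnmt3b at 0.45 ± 0.04 (1.37-fold), both higher in MD43. Of the promoters of these 10 genes, 0 held an E-box, against 7 of the 9 members. The word was held by 2 of 10 in the synaptonemal list, 5 of 12 matched piRNA genes and 3 of 12 matched recombination genes. It was held by 1 of 5 matched germ cell identity genes, 1 of 4 oocyte genes and 0 of 4 frontonasal markers. Among promoters with at least 11 CpG the share was 9.61%, so 0 of 10 lies near that share.

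**Figure D4:**
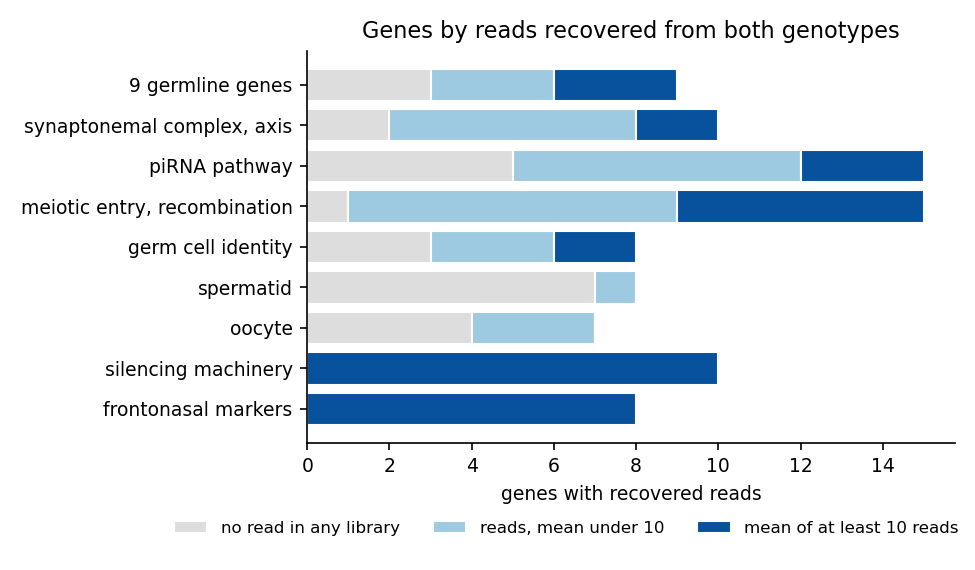
Number of genes (x axis) in each list (y axis) without a read in any library (light grey), with reads but a mean under 10 at equal depth (light blue) and with a mean of at least 10 (dark blue). The 9 germline genes split 3, 3 and 3, while all 10 silencing genes and all 8 frontonasal markers had a mean of at least 10 reads.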

How the data were processed

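RNA from 4 frontonasal prominences (2 WT, 2 MD43) was made into libraries. For its RNA libraries the paper names either a stranded mRNA kit or another TruSeq kit. Per the labels and the study's methods, the authors trimmed reads with Trim Galore (version 0.4.4), aligned them with HISAT2 (version 2.0.5) to GRCm38.p6 and quantified genes in SeqMonk. The deposited table holds log2 RPKM values, which the authors corrected for depth and gene length, in 1 merged column per genotype. Its columns of the authors' comparison (FDR, fold change, mean) were not used. Sex chromosomes were not analysed here.

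Rows were joined to GENCODE M21 (GRCm38) by symbol and coordinates, and 33101 matched. Genes without a read share a log2 difference of -0.4758, which with exon length fixes the scale. Products of reads under 1000 were whole, 0.9 times whole or 0.81 for 99.9% of genes in both genotypes (relative tolerance 0.0001, and 0.001 for 0.81). A run of the recovery on simulated counts used the same 0.9, exon lengths and merging that the recovery assumes. It checks the arithmetic only, not whether these settings hold for the deposited values. Genes with a mean of at least 10 reads at equal depth were compared by fold, with a genotype at or under 3 reads set to 3. Replicates were taken as separate embryos, but no test was possible.

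The 9 members and the lists were chosen with earlier results of these data known. Named from each list are up to 5 genes with the most reads, those past 2-fold at a mean of at least 10 reads and, beside a member with reads, genes within 5 kb. Computations used Python 3.11.15, numpy 2.4.6 and pandas 2.3.3. Alternatives were other filters, folds, pseudocounts (0.1 and 1 RPKM) and centring.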

Additional observations from a re-analysis of the deposited data

How the results depend on the processing

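No paired analysis was possible because only 1 merged value per genotype was given, and for the same reason fits without single libraries were not run. The other filters, and the 2-fold rule without the floor of 3 reads, could not change the 2-fold counts through the 6 low members, since either the filter or the floor still left them out. With neither, an alternative added after seeing the data, 0 members were 2-fold higher and 1 (Dazl) was 2-fold lower, against 1.93% and 4.4% of 33101 genes. With a wider tolerance for no read, 3 members had none. At 1.5-fold 1 member (Tdrd1) was higher, against 3% of 15007 genes. By the added rule of over 2 counting errors it was also 1, against 25.8%. Among the other germline genes, without a filter 1 was 2-fold higher (Piwil2) and 2 were lower (Tdrd9 and Hfm1), and with a mean of at least 5 reads 1 was higher (Piwil2) and 1 lower (Tdrd9). Hfm1 was named after its value was seen. Over all genes the 2-fold counts were 120 higher and 326 lower (0.8% and 2.17% of 15007). Without a filter they were 310 and 667 (1.79% and 3.86% of 17276). At a mean of at least 5 they were 283 and 534 (1.76% and 3.33% of 16057). At 10 reads in at least 1 genotype they were 252 and 380 (1.64% and 2.47% of 15377). The summed difference was -0.01 when centred, and, in alternatives added after seeing the data, 0.067 without Sycp3 and -0.26 without Tdrd1. Pseudocounts of 0.1 and 1 RPKM took the log2 difference of Tdrd1 from 0.62 to 0.44 and 0.12. That of Dazl went from -1.84 to -0.33 and -0.04. The same amount added to both genotypes can only shrink a difference and cannot change its sign, so the kept signs are no result. With at most 7 reads in a genotype, Dazl, Ddx4 and Slc25a31 give no usable fold.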

Other observations

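Few reads were found in genes of the last steps of the germline. Of 8 spermatid genes, 7 had no read in any library, among them the protamine genes Prm1 and Prm2 and the transition protein genes Tnp1 and Tnp2, which pack sperm DNA. These 4 genes are short, and a count of 0 allows 0.209 RPKM (Prm2) to 0.428 RPKM (Tnp1) in WT, above the 0.198 RPKM of Tdrd1, so a lower level than that of Tdrd1 is not shown. The exception was Ldhc, the lactate dehydrogenase of sperm, with 1.34 reads in WT and 2.00 in MD43. Of 7 matched promoters of spermatid genes, 0 held an E-box, and their median CpG count was 2, against 18 for the 9 germline genes.

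Of 7 oocyte genes, 4 had no read (Zp3, Figla, Nlrp5 and Oosp1). Gdf9, an oocyte growth factor gene, had the most reads, 6.48 in WT and 7.94 in MD43, and Zp1 and Zp2, which encode proteins of the egg coat, had 1 read in 1 library each. No spermatid or oocyte gene reached a mean of 10 reads.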
